A study of Drosophila melanogaster with 2 samples.

Results

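The 38 genes described here run the cell division cycle and copy the genome in Drosophila melanogaster. By role, 16 of them encode cyclins and kinases (8 cyclins, 5 cyclin-dependent kinases and the mitotic kinases polo, aurA and aurB), 9 encode other regulators, and 13 encode parts of the replication machinery. They were listed by symbol, and all 38 were found among the 13945 protein-coding genes annotated on the 6 chromosome arms used. The question asked of each was whether the Dati protein sat near one of its transcription start sites, and whether cyclin and kinase genes differed in this from replication genes.

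The study mapped binding by chromatin immunoprecipitation and sequencing (ChIP-seq) of Dati, a zinc finger protein encoded by dati, fused to enhanced green fluorescent protein (eGFP). All samples form 1 group of 2 biological replicates: whole transgenic embryos of the strain dati-GFP, 8 to 24 hours old per the source name, precipitated with anti-GFP. Both replicates carry the fusion, no other genotype or treatment is among the samples, and the labels name an insertion that targets dati but neither the promoter of the fusion nor the state of the untagged gene. A separate antibody field of the labels reads dati, and the statement that the antibody was against GFP was followed here. In whole embryos, fewer cells with binding and less binding per cell cannot be told apart.

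Cyclins rise and fall through the division cycle and switch on cyclin-dependent kinases (Cdks), which phosphorylate the proteins that start DNA synthesis and mitosis. Replication origins are marked by the origin recognition complex (ORC) and loaded with the MCM helicase, and E2F transcription factors, held back by the retinoblastoma protein Rbf, control many genes of DNA synthesis. In the later Drosophila embryo most epidermal cells have left the cycle, neural precursors still divide, and several tissues turn to endocycles, in which DNA is copied without mitosis.

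The authors' optimal set of 1915 peaks, thresholded over both replicates, supplied the calls. It rests on the irreproducible discovery rate (IDR), which asks how well the ranks of peaks repeat between sub-lists, and its lowest score corresponds to an IDR of 0.0100. A gene is called bound here where an optimal summit lies at most 1000 bp from a start site of the gene. Where there was none, the place of highest signal at the same distance was taken from the authors' pooled ranked list of 156658 places, to which no threshold had been applied. The signal value of a place is the authors' own, on a scale not given in the sources used here. The ranked lists hold places that were paired between sub-lists, so a place that is not listed is not a zero. The lists hold no read counts, the depth is therefore unknown, and the exact (Clopper-Pearson) 95% intervals on shares of genes cover counting error only.

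Of the 38 genes, 4 were bound, which is 10.5% (2.94 to 24.8). By the same rule 1327 of all 13945 protein-coding genes, or 9.52%, were bound, so the share among cell cycle and replication genes was near that of genes at large. The bound genes were CycE and Cdk1 among 16 cyclin and kinase genes (12.5%, 1.55 to 38.3), Dp among 9 other regulators (11.1%, 0.281 to 48.2) and Mcm2 among 13 replication genes (7.69%, 0.195 to 36.0). The intervals of the 3 classes overlap over most of their length, and so few genes do not tell the classes apart. A difference in share was not tested. Of these peaks, that of Dp, at 83.8, was above the median signal of the optimal set, 78.6, and the other 3, at 57.6 to 61.1, were below it. Their median of 60.8 stood against a median of 86.4 over all bound genes, and the highest optimal signal was 936.2. The best places of the other members reached a median signal of 34.6.

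The summits near CycE, Cdk1 and Mcm2 are shown as 101 bp windows, because these sequences lay under peaks that decide the counts above. The window at the summit near Dp, the other bound gene, is not printed. Each is read 5′ to 3′ on the strand of its gene from build dm6 (RefSeq Release 6), with the summit at the middle base. Capitals mark the searched motifs that were found, namely the E-box CAGCTG and the TATA box TATAAA on either strand. The CycE window lies at chr2L:15746925-15747025, minus strand, with its summit 365 bp upstream of a start site. The Cdk1 window lies at chr2L:10386467-10386567, minus strand, with its summit 255 bp upstream. The Mcm2 window lies at chr3R:8264774-8264874, plus strand, with its summit 146 bp upstream, and none of the searched motifs occurs in its window.
CycE: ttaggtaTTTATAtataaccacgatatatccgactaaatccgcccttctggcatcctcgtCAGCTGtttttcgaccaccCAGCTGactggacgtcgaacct
Cdk1: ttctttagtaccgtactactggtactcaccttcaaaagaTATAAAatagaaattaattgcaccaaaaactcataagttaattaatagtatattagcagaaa
Mcm2: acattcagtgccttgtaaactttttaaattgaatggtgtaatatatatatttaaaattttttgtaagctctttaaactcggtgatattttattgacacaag
The CycE window holds CAGCTG in 2 copies, besides a TATAAA on the opposite strand, and the Cdk1 window holds a single TATAAA. Among the windows at the 874 optimal summits that lie within 500 bp of any start site, this E-box is in 3.20% and TATAAA in 19.5%. The bases G and C make up 46.5% of the CycE window, 26.7% of the Cdk1 window and 24.8% of the Mcm2 window. The Dp window held none of the searched motifs, and G and C make up 44.6% of it.

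CycE encodes the cyclin that, with Cdk2, drives entry into DNA synthesis. Its bound place at chr2L:15746843-15747106 lies inside the span of the gene, which has 3 annotated start sites, and no start site of another gene was within 1000 bp. The place had a signal of 61.1, rank 1455 in the optimal set and an IDR of 0.00261 in the pooled list. In replicate 1 the overlapping place had a signal of 25.2 and an IDR of 0.0301, while replicate 2 listed no overlapping place and had its best signal near a start site, 17.2, at 145 bp downstream. The CycE call therefore rested on the pooled list, and the peak was absent from the conservative set, which pairs the replicates. A second optimal peak, with a signal of 63.0 in the pooled list and 22.6 in replicate 1, lay 3009 bp upstream of CycE and 81 bp from the start of ND-B17.

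Cdk1 encodes the kinase that triggers mitosis. Its place at chr2L:10386385-10386648 had a signal of 57.6, rank 1601 in the optimal set and an IDR of 0.00751 in the pooled list. The replicates stood apart at this gene: replicate 1 listed it at rank 1028 with 42.6, replicate 2 at rank 33634 with 15.5. The ratio of replicate 2 to replicate 1, 0.363, was the lowest among the 23 genes where it could be formed. Replicate 1's own thresholded set held the place, whereas replicate 2's and the conservative set did not, and its IDR in the paired list was 0.240. The start site of mRpS7, a mitochondrial ribosomal protein gene on the other strand, was nearer to the summit, at 145 bp.

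Mcm2 encodes a subunit of the MCM helicase, which unwinds DNA at the fork. Its place at chr3R:8264692-8264955 had a signal of 60.4, rank 1489 in the optimal set and an IDR of 0.00452. The replicates were close, with signals of 29.9 in replicate 1 and 30.1 in replicate 2. The peak was in the conservative set with a paired IDR of 0.00576, but in neither replicate's own set. RPA1, which encodes the large subunit of the single-stranded DNA binding complex RPA, is transcribed away from Mcm2, and its start site lay 373 bp from the same summit. The peak thus stood between a pair of replication genes, and Mcm2 was the nearer.

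Dp encodes the partner that E2F proteins need to bind DNA, and it had the strongest signal of all 38 genes. Its place at chr2R:13223276-13223539, 183 bp upstream of a start site and inside the span of the gene, had a signal of 83.8, rank 854 in the optimal set and an IDR of 0.00204. The signal was 44.0 in replicate 1 and 34.1 in replicate 2, with ranks of 971 and 1410. Replicate 1's own set held the peak, and so did the conservative set. Of the 4 bound genes only Dp was still bound when the optimal set was restricted to peaks at or above its median signal, and 5.50% of all genes were. Its signal was above that of 94.5% of the 13012 genes with a place near a start site.

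**Figure D1:**
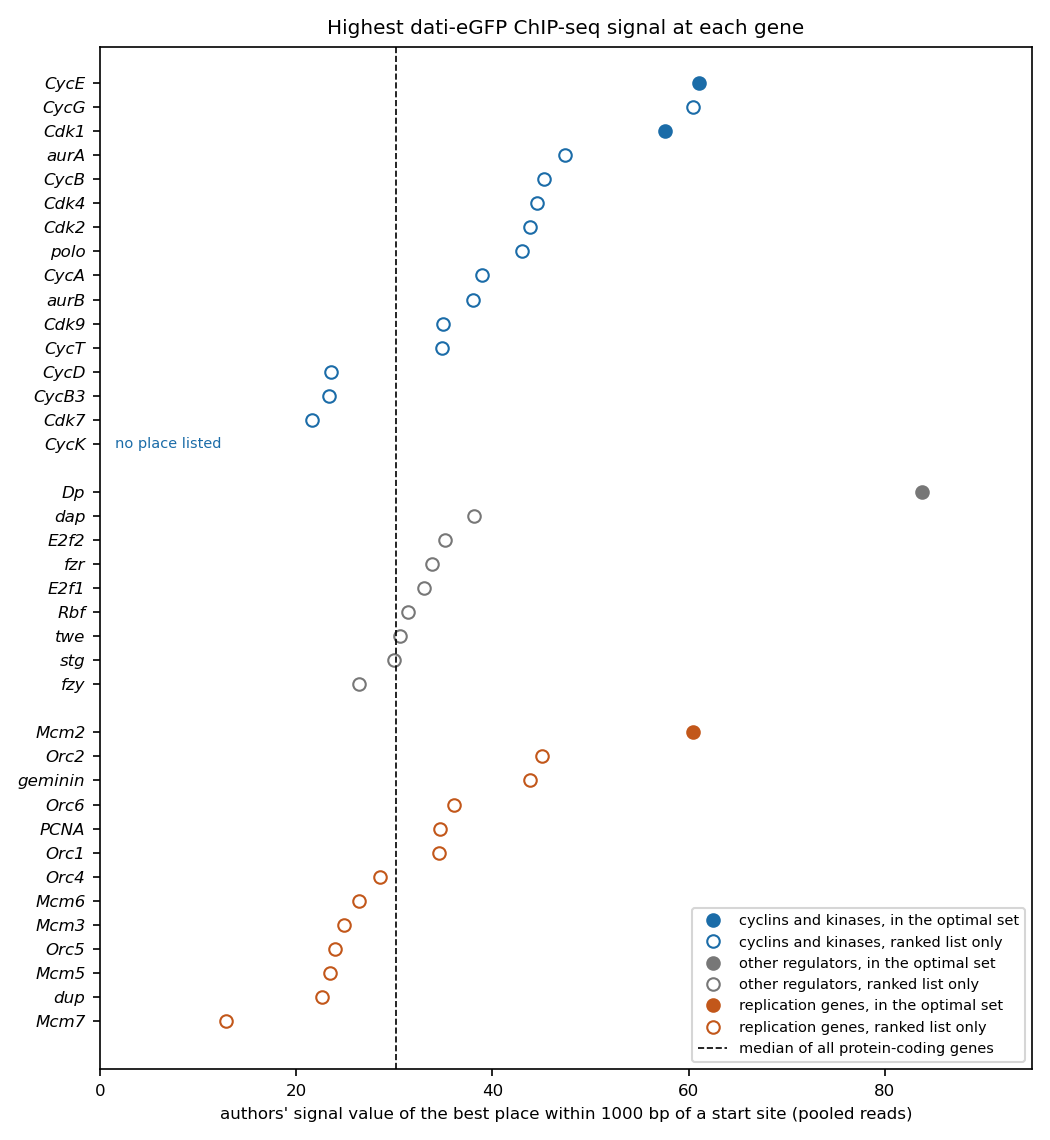
Signal value of the best place within 1000 bp of a start site of each gene, from the optimal set (filled) or else the pooled ranked list (open), by class, with the median of all protein-coding genes, 30.2, as a dashed line. The filled points of CycE, Cdk1, Dp and Mcm2 lie between 57.6 and 83.8, CycG at 60.4 is open, and CycK has no listed place.

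Any place at all in the pooled list was no distinction, since 37 of the 38 genes had one and so did 93.3% of all genes. The plot of the best signal of each gene shows a spread of 12.8 to 83.8 with a median of 34.9, and 25 of the 37 genes were above the median of all genes, 30.2. Cyclin and kinase genes had a median best signal of 43.0 (21.6 to 61.1, n = 15) and replication genes one of 28.5 (12.8 to 60.4, n = 13). Ranked among all genes with a place, the median percentile was 80.6 for cyclin and kinase genes and 44.1 for replication genes, although the ranges of signal overlap over most of their length. The other regulators had a median of 33.0 (26.4 to 83.8, n = 9). Among cyclin and kinase genes 12 of 15 were above the median of all genes, and among replication genes 6 of 13.

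That difference between the medians of the classes appeared in replicate 1 and not in replicate 2. In replicate 1 the median best signal was 24.0 for cyclin and kinase genes (n = 15) and 16.6 for replication genes (n = 11). In replicate 2 it was 17.2 for cyclin and kinase genes (n = 14) and 17.4 for replication genes (n = 12). With 2 libraries the difference between the replicates has no test. The order of the classes in the pooled list was the same at each distance tried, and the size of the gap varied. Within 250 bp of a start site the medians were 33.5 for cyclin and kinase genes (n = 11) and 26.2 for replication genes (n = 7). Within 500 bp they were 39.0 (n = 12) and 25.0 (n = 12) in the same order, and within 2000 bp 43.0 (n = 15) and 36.1 (n = 13). These medians draw on the same pooled list and are not independent of each other.

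Among the cyclin genes CycG came closest to a call without getting it. CycG encodes an atypical cyclin, and its best place, 130 bp downstream of a start site, had a signal of 60.4, with 25.9 in replicate 1 and 30.5 in replicate 2. Its score of 890 was above 830, the lowest score in the optimal set, yet the place was in neither the optimal nor the conservative set. If such places are added back, 5 of the 38 genes are bound (13.2%), against 9.75% of all genes. The nearest optimal peak of CycG, with a signal of 440.2, was 3503 bp upstream and 7 bp from the start site of Mnat9.

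The mitotic cyclins, which are destroyed in turn as cells divide, were not bound at their start sites. CycB had a best signal of 45.3 at 119 bp upstream (18.1 in replicate 1, 27.8 in replicate 2), CycA 38.9 at 890 bp downstream (20.4 and 18.8 in the same order), and CycB3 23.3 at 562 bp downstream (6.9 and 14.2). CycB differed from the others in having a strong optimal peak beyond its far end, at chr2R:22802885-22803039, 560 bp past the end of the gene and 3342 bp from its nearest start site. This peak had a signal of 385.5, rank 33 in the optimal set, with 190.7 in replicate 1 and 198.8 in replicate 2. It lay between genes, and no protein-coding start site was nearer than that of CycB.

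The remaining cyclin genes, CycT, CycD and CycK, were not bound. CycT, whose product pairs with Cdk9 in transcription elongation, had a best signal of 34.9 at 113 bp downstream. CycD, which encodes the partner of Cdk4, had 23.5 at 552 bp upstream, listed in replicate 1 (12.6) but not in replicate 2. CycK, whose product pairs with Cdk12, was the only gene with no place within 1000 bp in the pooled list, and its nearest optimal summit was 151917 bp away. Replicate 1 alone listed a place for it.

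Of the other kinase genes none was bound. Cdk4, which encodes a growth-linked kinase, had a best signal of 44.5 at 597 bp upstream, and Cdk2, the partner of CycE, had 43.8 at 502 bp upstream. Cdk9 had 35.0 at 909 bp upstream, nearer to bonsai, and replicate 1 gave it 28.7 against 12.3 in replicate 2. Cdk7, which encodes the kinase that activates other Cdks and is part of the transcription factor TFIIH, had 21.6, the lowest of its class. The genes of the mitotic kinases spanned 38.0 to 47.4. The centrosome and spindle kinase gene aurA had 47.4 at 208 bp upstream, nearer to CG3281. The gene polo, whose product acts from the centrosome to cytokinesis, had 43.0 at 86 bp upstream. The gene aurB, whose product acts on chromosomes and in cytokinesis, had 38.0 at 774 bp upstream, nearer to Stam. Their IDR values in the pooled list were 0.136, 0.0336 and 0.377 in that order, all above the 0.0100 of the optimal set.

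The Cdc25 phosphatase genes, which release Cdk1 from inhibition, sat at the middle of the genome's distribution. The best signal was 30.0 at stg, which times mitosis in the embryo, and 30.6 at twe, which acts in meiosis and early cleavage. The activators of the anaphase-promoting complex had 26.4 at fzy and 33.8 at fzr, which is needed to leave the cycle. The gene fzr also had an optimal peak of 156.0 located 242 bp past its end (109.9 in replicate 1, 51.8 in replicate 2), for which CG3009 had the nearest start site. The inhibitor of CycE and Cdk2, dap, had 38.1 at 534 bp downstream, listed in replicate 2 (30.0) but not in replicate 1.

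Apart from Dp, the E2F genes were near the median of all genes. E2f2, which encodes the repressive E2F, had a best signal of 35.2 at 37 bp upstream, with 32.5 in replicate 2 and no overlapping place in replicate 1. E2f1, the activating E2F, had 33.0 at 964 bp upstream, and Rbf had 31.4 at 978 bp downstream, both only just inside the limit of 1000 bp. E2f2 had an optimal peak of 107.2 at 1920 bp upstream, with Coq3 the nearest gene at 58 bp.

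The replication genes other than Mcm2 had no optimal summit within 1000 bp of their own start sites. PCNA, the sliding clamp gene, had a best signal of 34.7 at 101 bp downstream, with 18.2 in replicate 1 and 14.1 in replicate 2. An optimal peak of 89.6 at 1101 bp upstream of PCNA was the nearest to the limit on its outer side, and RpS18, a ribosomal protein gene, had a start site 5 bp from that summit. Mcm3 was the next, with an optimal peak of 54.5 at 1163 bp upstream and 4 bp from the start of Rnp4F, against a best signal of 24.9 of its own. On the inner side of the limit the farthest bound member was CycE, at 365 bp, so no member had an optimal summit between these distances.

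The MCM genes besides Mcm2 were among the weakest. Mcm6 had a best signal of 26.4, Mcm5 23.4 and Mcm7 12.8, the lowest value of all the members and above that of 2.79% of genes. Neither replicate listed a place that overlapped the best places of Mcm5 and Mcm7. The 5 ORC genes, whose products mark origins, ran from 23.9 at Orc5 through 28.5 at Orc4, 34.6 at Orc1 and 36.1 at Orc6 to 45.0 at Orc2. The Orc2 place had 28.8 in replicate 1 and 14.2 in replicate 2. Of the licensing genes, geminin, which encodes the inhibitor of Dup, had 43.8 at 588 bp downstream (22.4 and 21.9), while dup, which encodes the Drosophila Cdt1 that loads MCM, had 22.6 and lay 8 bp from the start of SRPK.

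**Figure D2:**
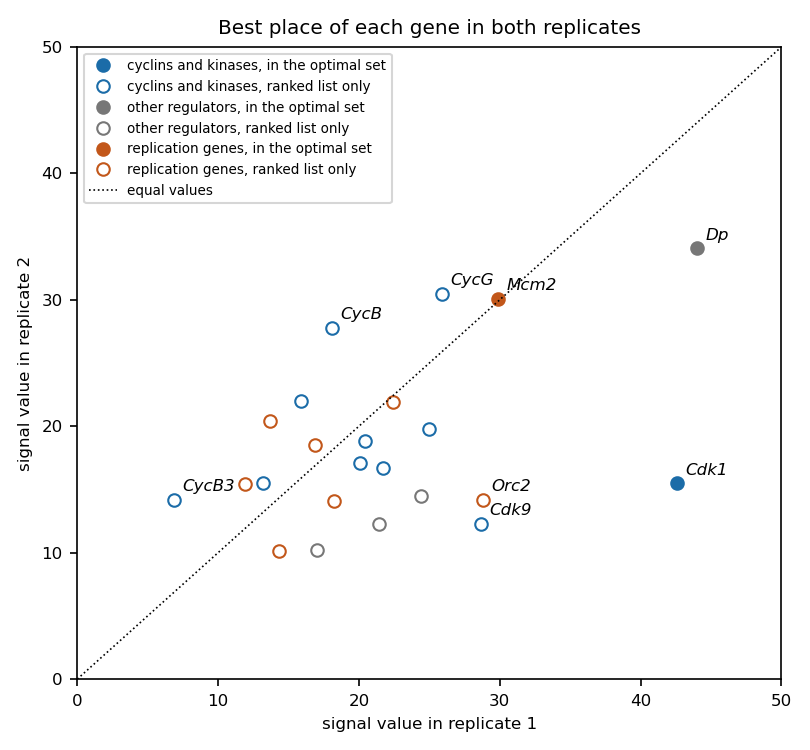
Signal value in replicate 1 (x axis) and replicate 2 (y axis) of the place that overlaps the best place of each gene, for the 23 genes listed in both, with filled points for bound genes. Mcm2 lies at 29.9 and 30.1, Dp at 44.0 and 34.1, and Cdk1 at 42.6 and 15.5, far below the dotted line of equal values.

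The replicates listed a place overlapping the best place of 23 genes. A further 6 were listed in replicate 1 only (CycD, CycE, polo, twe, fzy and dup), 6 in replicate 2 only (Cdk7, E2f1, E2f2, dap, Mcm6 and Orc1), and Mcm5 and Mcm7 in neither. As the plot of one replicate against the other shows, the signal was higher in replicate 1 at 14 of the 23 genes and higher in replicate 2 at 9, with a median ratio of replicate 2 to replicate 1 of 0.854 (0.363 to 2.06). The sources used here do not say whether signals of separate lists share a scale. Among the 11 cyclin and kinase genes listed in both the median ratio was 0.919, among the 8 replication genes 0.994. CycB3, at 2.06, and Cdk1, at 0.363, were the extremes.

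**Figure D3:**
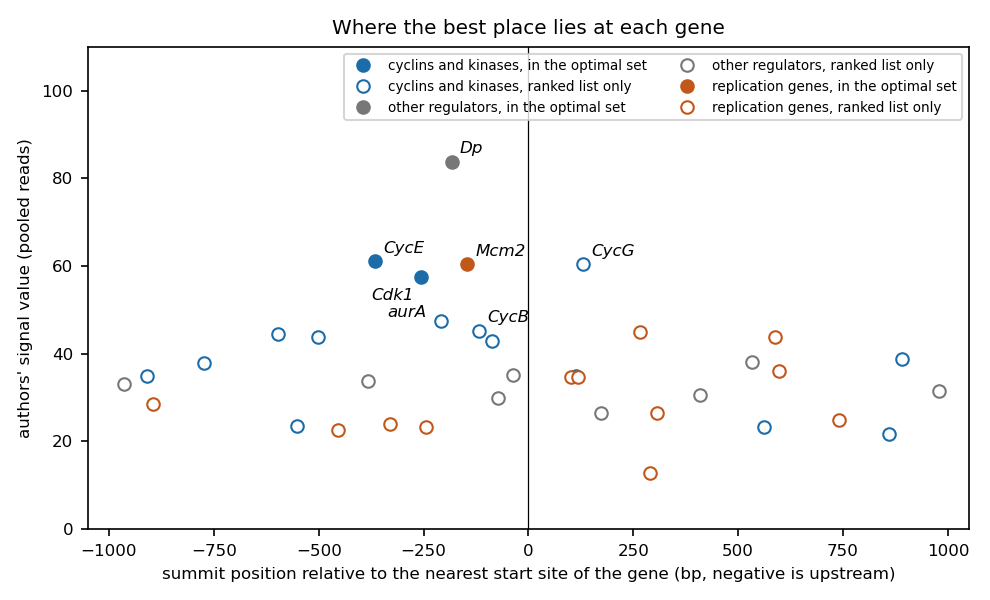
Signal value of the best place of each gene (y axis) by the distance of its summit from the nearest start site of the gene in bp (x axis, negative upstream), with filled points for bound genes. The 4 bound genes lie upstream, between −365 and −146 bp, and the open points spread over the whole range.

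All 4 bound genes had their summit upstream of the start site and within 500 bp of it. Over all genes, 1058 had an optimal summit within 500 bp, of the 1327 with one within 1000 bp, so that distance was common among bound genes. The share of upstream summits over all bound genes was not computed. Of the 33 other genes with a place, 16 had it upstream and 17 downstream, as the plot of signal against distance shows. The GC contents of the bound and other places overlapped. The windows at the 4 bound summits had a median GC content of 35.6% (24.8 to 46.5), near the 33.7% at all 874 optimal promoter summits. The best places of the 33 others had 51.5% (26.7 to 64.4), and 48.5% (26.7 to 57.4) for the 21 of them within 500 bp of a start site. Another gene's start site lay within 1000 bp of the best place at 19 of 37 genes, 6 of 15 for cyclins and kinases and 8 of 13 for replication. This count was not made over all genes, so it has no baseline here. The other gene's start site was the nearer at Cdk1, Cdk7, Cdk9, aurA, aurB, E2f2, Mcm5, Orc4, Orc5 and dup.

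**Figure D4:**
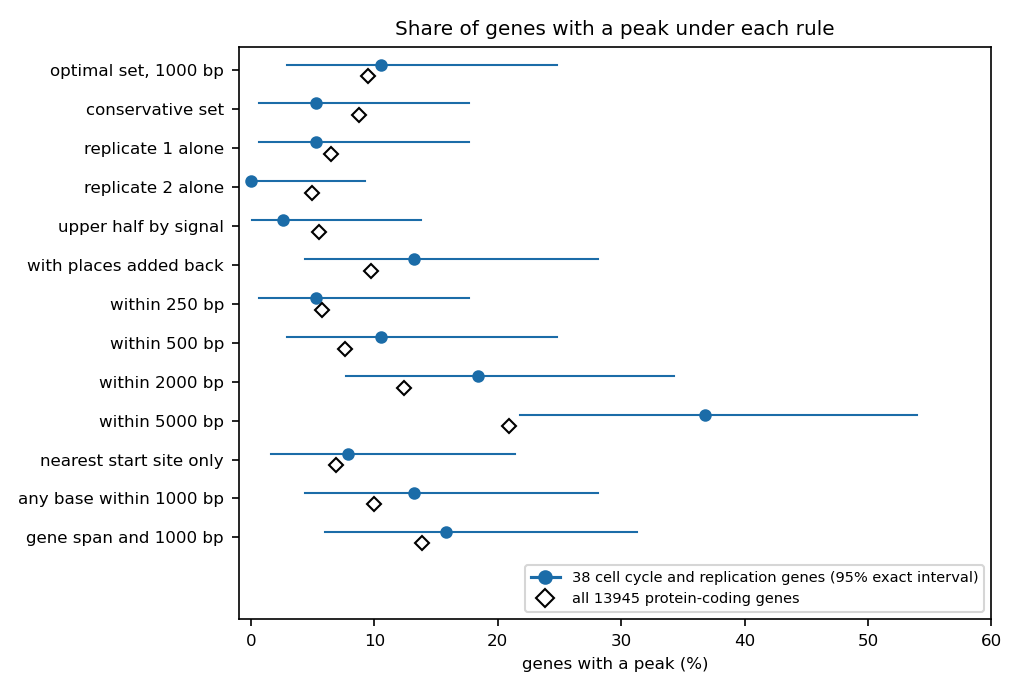
Share of the 38 genes with a peak under each rule (circles, with exact 95% intervals) and of all 13945 protein-coding genes under the same rule (diamonds), in percent. The share of the 38 genes goes from 0% in replicate 2's own set to 36.8% at 5000 bp, and the diamond lies within the interval under every rule shown except 5000 bp.

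The count of bound members followed the rule, and so did the count over all genes. In the conservative set 2 members were bound, Dp and Mcm2, or 5.26% against 8.77% of all genes, and 0 of the 16 cyclin and kinase genes were among them (exact upper bound 20.6%). Replicate 1's own set had 2, Cdk1 and Dp, or 5.26% against 6.47%, and replicate 2's own set had 0 (exact upper bound 9.25%), against 4.98%. Taking each summit to its nearest start site kept CycE, Dp and Mcm2 (7.89% against 6.92%). Counting any base of a peak added PCNA (13.2% against 9.97%).

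The counts also changed with the distance allowed. Within 250 bp Dp and Mcm2 were bound (5.26% against 5.79% of all genes), and within 500 bp all 4 were (10.5% against 7.59%). Within 2000 bp there were 7, with E2f2, Mcm3 and PCNA added (18.4% against 12.4%). Over gene spans extended by 1000 bp, 6 were bound, with CycB and fzr added (15.8% against 13.9%). Within 5000 bp the count was 14, or 36.8% (21.8 to 54.0) against 20.9%, with 6 of 16 cyclin and kinase genes and 6 of 13 replication genes. The last 2 rules were chosen after the data had been seen, and at 9 of the 10 genes added at 5000 bp the start site of another gene was nearer to the summit. The median distance to the nearest optimal summit was 11471 bp for the 38 genes and 19567 bp for all genes.

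Genes with more start sites were bound more often. Of all genes, 6.72% of those with 1 start site were bound, 14.1% of those with 2 and 24.3% of those with 3 or more. Of the members, 2 of 23 were bound in the first class (Cdk1 and Mcm2), 0 of 9 in the second and 2 of 6 in the third (CycE and Dp).

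**Figure D5:**
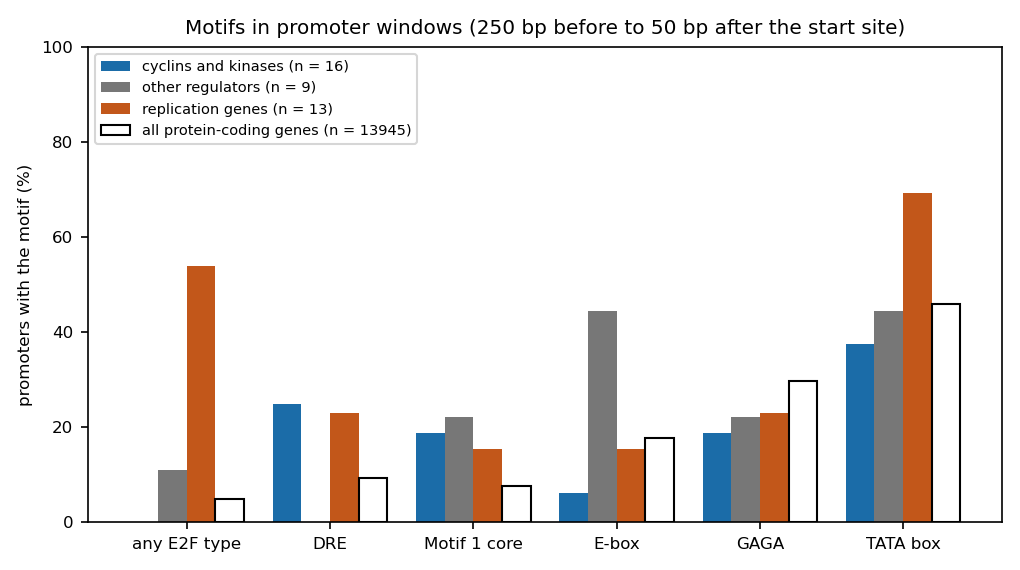
Share of promoters, in percent, with each motif on either strand from 250 bp before to 50 bp after the start site, for cyclin and kinase genes, other regulators, replication genes and all protein-coding genes (bars from left to right). The E2F motifs searched (exactly TTTCCCGC, TTTGGCGC or TTTCGCGC) occur at 7 of 13 replication genes, 1 of 9 other regulators and none of 16 cyclin and kinase genes.

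E2F motifs were found mainly at the promoters of replication genes. An E2F motif (TTTCCCGC, TTTGGCGC or TTTCGCGC) on either strand, in the window from 250 bp before to 50 bp after the start site, occurred at 8 of 38 members (21.1%), against 4.88% of all promoters. These were 7 of the 13 replication genes (Mcm2, Mcm3, Mcm6, Orc1, Orc4, Orc5 and Orc6) and stg, as the plot of promoter motifs shows. Of the 8 only Mcm2 was bound, and its TTTCCCGC, at chr3R:8265006-8265013, began 36 bp downstream of the start site and 182 bp from the summit. Over all genes, 76 of the 680 with an E2F motif in the promoter were bound, so 1 of 8 does not set the members apart. The share of promoters with an E2F motif was 5.73% for bound genes. No bound member had an E2F motif in its summit window, and 1.60% of the windows at promoter summits did, against 1.49% of windows 500 bp to each side.

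The DNA replication-related element (DRE), TATCGATA, is known from the PCNA promoter and other genes of proliferating cells in Drosophila. It occurred at 7 of 38 member promoters (18.4%), namely those of CycA, CycT, Cdk2, Cdk9, PCNA, Orc2 and Orc5, against 9.37% of all promoters and 11.8% of those of bound genes. None of the 7 was bound, and over all genes 156 of the 1306 with a DRE in the promoter were. With 7 genes the 0 does not set the members apart. At promoter summits of the optimal set the DRE was in 2.40% of windows, against 0.343% of the flanking windows. The E-box CAGCTG seen at CycE was in 3.20% of these windows, against 5.95% of the flanking ones, and TATAAA in 19.5% against 10.2%. In the promoter windows, Motif 1 core (GGTCACAC) occurred at 18.4% of members and 7.71% of all genes, GAGAG at 21.1% and 29.8%, CAGCTG at 18.4% and 17.7%, TATAAA at 19 of the 38 and at 45.9%, and the E-box CACGTG at 2.63% and 4.24%, each on either strand. A match is a description of the letters and not evidence that a factor binds there. Only exact strings were searched, E2F motifs included, so a promoter without a match is not shown to lack a site.

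A longer list of 124 other cell cycle, replication and mitosis genes gives the setting. Of these, 24 were bound by 22 distinct summits, or 19.4% (12.8 to 27.4), against the 9.52% of all genes given above. The peaks of 23 of the 24 were in the conservative set. By that set 25 of the list were bound, or 20.2% (13.5 to 28.3), against 8.77% of all genes. By function the 24 included 6 of 39 replication genes and 5 of 21 genes of other cyclins, Cdks and their regulators. Of those 5, Cdk12 alone encodes a cyclin or Cdk, and SkpA, ago, trbl and tws do not. The rest were 4 of 25 of the anaphase-promoting complex and checkpoints and 8 of 33 for chromosome structure and mitosis. For E2F and its repressor complexes it was 1 of 6. Replicate 1 alone called 11 of the list (8.87%, against 6.47% of all genes), and replicate 2 alone called 9 (7.26%, against 4.98%). Taking each summit to its nearest start site left 12, or 9.68% (5.10 to 16.3), against 6.92%, and peaks at or above the median signal left 8, or 6.45% (2.83 to 12.3), against 5.50%. The list was drawn up with earlier results of these data known. The median signal was 72.0 (47.4 to 338.7), above every bound member but Dp.

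The strongest was chif, which encodes the activating partner of the Cdc7 kinase that fires origins, with 338.7 (170.0 in replicate 1, 171.7 in replicate 2). Its summit lay in an intron, 928 bp upstream of the nearest start site of chif. The cohesin regulator gene pds5 had 248.0 (141.3 and 104.1 in the same order), with Mppe nearer to the summit. SkpA, an SCF ubiquitin ligase gene, had 227.8 (134.3 and 93.4), with Hmt4-20 nearest. The checkpoint kinase gene mei-41, the Drosophila ATR, had 176.8 (98.4 and 81.7), and TH1 was nearest to its summit. PolD2, a DNA polymerase delta subunit gene, had 163.7 (107.0 and 55.5) and was the nearest gene itself, and lin-52, of the DREAM complex, had 122.9 (78.9 and 40.5), with CG15771 nearest. The others were Bub3, Cap-D2, Cap-H2, Cdc16, Cdc7, Cdk12, Ctf4, Psf2, RnrS, SAK, SMC2, ago, mus304, pbl, sti, trbl, tum and tws.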

How the data were processed

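ChIP-seq peak lists of 2 biological replicates of 8 to 24 hour embryos were used as deposited. Sonicated chromatin had a labelled size range of 200 to 800. Build dm6 is named per the labels. Aligner and caller were not given in the sources used here. The signal value of each place is the authors' own. The deposited score scales the IDR with an upper limit of 1000, and the authors' ranked lists hold the IDR as −log10. Optimal, conservative and each replicate's own sets were thresholded by the authors, with 1915, 1675, 1208 and 877 peaks. In 2 series tables, 16 columns of paired values have no replicate name and stayed unused.

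Genes came from Ensembl release 115 and sequence from the Release 6 genome. The 6 arms are 2L, 2R, 3L, 3R, X and chromosome 4, with 1892 optimal peaks. Distances run from a summit to the nearest start site of the gene. The software was Python 3.11.15, pandas 2.3.3 and scipy 1.17.1. A check on simulated summits covered only the rule that calls genes by distance. No test was made: there is 1 group, and genes are not replicates, so counts are set beside all genes.

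Members and lists were chosen with earlier results of these data known. Every member is named, bound ones in full; of 124 matched other genes (135 listed) every bound one is named, with values for the 6 of highest signal. Of the listed other names, 11 were not matched by symbol and are not analysed here, among them RpA-70, whose gene is annotated as RPA1. The alternatives were the conservative set, each replicate alone, the peaks at or above the median signal, places added back by score, other distances, the nearest start site, any base of a peak, and narrower classes.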

Additional observations from a re-analysis of the deposited data

How the results depend on the processing

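Bound members numbered 4 as reported, 2 in the conservative set, 1 among peaks at or above the median signal, 2 at 250 bp, 7 at 2000 bp and 14 at 5000 bp, and 0 to 2 with a replicate left out. Cyclin and kinase genes numbered 2, against 0 in the conservative set, 0 above the median signal, 0 at 250 bp, 1 by nearest start site, 6 at 5000 bp and 0 to 1 with a replicate left out. Replication genes numbered 1, against 0 above the median signal, 3 at 2000 bp, 2 for any base, 6 at 5000 bp and 0 to 0 with a replicate left out. The other pathway genes numbered 24, against 8 above the median signal, 15 at 250 bp, 12 by nearest start site, 40 at 5000 bp and 9 to 11 with a replicate left out.

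The median best signal of cyclin and kinase genes, 43.0, was 33.5 at 250 bp and 17.2 to 24.0 in single replicates. That of replication genes, 28.5, was 26.2 at 250 bp, 25.0 at 500 bp, 36.1 at 2000 bp and 16.6 to 17.4 in single replicates. Under the other alternatives run the counts stayed within 1.5 times of those reported. The cyclin and kinase median was 39.0 at 500 bp and 41.4 without polo, aurA and aurB. Gene spans and 5000 bp were added after the data had been seen. No paired analysis was possible because there is 1 group.

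With 16 and 13 genes in the classes and 4 bound in all, the counts did not tell the classes apart. A difference in share was not tested. Depth is unknown, and the rank of the Cdk1 place was 1028 in replicate 1 and 33634 in replicate 2. The cause of each change was not tested.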
